A study of Mus musculus with 9 samples.

Results

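Cortical inhibitory interneurons were followed through 10 genes by which their classes are told apart, namely Pvalb, Sst, Vip, Calb1, Calb2, Reln, Cort, Lhx6, Nos1 and Ndnf. They were chosen by name, and each matched 1 row of the count table by its NCBI gene ID. All 10 passed the filter on low counts, out of 15144 genes that did and 36172 features in the table. RNA of the medial prefrontal cortex (mPFC), a frontal area that takes part in the control of mood and social behaviour, was sequenced from DBA2/J mice, an inbred strain, with 3 samples in each of 3 groups. SA:ANH-KDM5Ci mice went through social defeat for 5 days (smSDS), in which a mouse is repeatedly exposed to an aggressor, were classed by the submitters as the SA:ANH subtype, and received an inhibitor of KDM5C. KDM5C is an X-linked enzyme that removes methyl groups from lysine 4 of histone H3. SA:ANH-vehicle mice went through the same defeat, were of the same subtype and received saline. NS mice were not stressed and received saline. No engineered allele is named, and the meaning of SA:ANH, the dose and timing of the inhibitor and the age of the mice are not given in the sources used here.

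Interneurons release GABA and restrain the pyramidal neurons around them. Those born in the medial ganglionic eminence of the embryo depend on the transcription factor LHX6 and become fast-spiking parvalbumin cells or somatostatin cells, some of which also make cortistatin or neuronal nitric oxide synthase. Those born in the caudal ganglionic eminence include the VIP cells, which inhibit other interneurons and in part make calretinin, and the NDNF and reelin cells of layer 1. Several of these genes are also active elsewhere. Calbindin (Calb1) is made by pyramidal neurons of the upper layers, calretinin (Calb2) by many neurons of the olfactory bulb, and reelin by Cajal-Retzius cells.

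The levels of the members spanned a wide range. As reads per kilobase per library size (RPKM, over the merged exons of GENCODE), Sst was at 224 ± 22.8, Pvalb at 47.6 ± 9.17, Calb1 at 33.9 ± 3.09 and Vip at 18.4 ± 1.07 (mean ± SD over the 9 libraries). Sst did not overlap with Pvalb in any library, nor Calb1 with Vip, while Pvalb, from 35.3 to 65, and Calb1, from 31 to 39.8, overlapped. Calb2 at 6.41 ± 3.28, Lhx6 at 4.78 ± 0.423 and Reln at 4.45 ± 0.548 RPKM had overlapping ranges, as had Cort at 2.4 ± 0.443 and Nos1 at 2.13 ± 0.34. Ndnf was lowest, at 0.955 ± 0.267 RPKM. Vip varied least between libraries, with a coefficient of variation of 5.85%, and Calb2 most, with 51.1%.

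Library totals ran from 29845097 to 42196472 counts, and the level that a count of 0 allows was at most 0.101 counts per 1000000 (CPM), so that even Cort, with 45.2 to 87.1 counts, was well above it. Markers of the cortex were high, with Slc17a7, the vesicular glutamate transporter of cortical excitatory neurons, at 1481 to 1687 CPM. Markers of neighbouring tissue differed between libraries. NS replicate 3 stood apart for the olfactory bulb, with Cdhr1 at 27.6 CPM against 2.27 to 9.13 CPM in the other libraries and Doc2g at 15.6 against 2.29 to 6.08 CPM. The summed level of 8 olfactory bulb markers ran from 64.8 to 65.4 CPM in SA:ANH-KDM5Ci, from 60.1 to 70.6 CPM in SA:ANH-vehicle and from 63 to 116 CPM in NS. That of 10 markers of meninges and fibroblasts ran from 85.4 to 94.4 CPM in SA:ANH-KDM5Ci, from 125 to 198 CPM in SA:ANH-vehicle and from 110 to 175 CPM in NS, and that of 10 striatal markers from 262 to 610, from 215 to 285 and from 191 to 319 CPM in the same groups. No defining marker of these 3 lists was at 0 except Isl1 in NS replicate 3. Whether the 3 samples of a group are different animals is not in the labels. The p-values therefore speak of the spread among these samples alone, and it may be technical.

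SA:ANH-KDM5Ci against NS sets stressed mice given the inhibitor beside mice with neither stress nor inhibitor, so stress, subtype and inhibitor cannot be told apart in it. Ndnf fell and Lhx6 rose, and the other 8 members did not pass. Ndnf encodes a secreted glycoprotein and marks the neurogliaform cells of layer 1, and Lhx6 is the homeobox factor that parvalbumin and somatostatin cells keep throughout life. The 2 members that passed, 1 in each direction, compare with 3.97% of all tested genes that passed in this comparison, 1.86% higher and 2.11% lower. The median log2 fold change was -0.06 over the members and -0.00025 over all tested genes. In bulk tissue fewer cells of a class and less RNA per cell cannot be told apart.

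Ndnf (NCBI gene 68169, chromosome 6, 65671611 to 65712323, GRCm38) was at 6.92, 6.69 and 7.02 CPM in SA:ANH-KDM5Ci, at 10.4, 9.38 and 9.56 CPM in SA:ANH-vehicle and at 9.95, 12 and 15 CPM in NS. The SA:ANH-KDM5Ci libraries lay together and below all 6 others, while SA:ANH-vehicle and NS overlapped. The log2 fold change of SA:ANH-KDM5Ci against NS was -0.84 (SE 0.13, 95% interval -1.11 to -0.56), 0.56-fold, and the adjusted p was 0.00227 in the quasi-likelihood test of edgeR. The call held in each of the 9 fits without 1 library, with adjusted p from 0.000339 to 0.0143, and at -0.68 (adjusted p = 0.00711) without NS replicate 3. Against SA:ANH-vehicle it was -0.51 (SE 0.13, interval -0.78 to -0.23) with an adjusted p of 0.0591, which misses the threshold of 0.05. It was past the threshold with DESeq2 (adjusted p = 0.0188), when only these 2 groups were fitted (0.0146) and when NS replicate 1 (0.015) or NS replicate 3 (0.0186) was left out, and over all alternatives the adjusted p ran from 0.0146 to 0.164. Of the 10 meningeal markers 3 fell against NS, namely Foxd1, Foxc1 and Slc22a6, and 4 against SA:ANH-vehicle, the same genes and Lum. All 10 had log2 fold changes below 0 in both comparisons, with medians of -0.76 against NS and -0.79 against SA:ANH-vehicle. Foxd1, a forkhead factor, kept both calls in all alternatives run, at -1.25 against NS and -1.26 against SA:ANH-vehicle on the log2 scale. The count of 3 was lowered by single libraries, as Foxc1 lost its call without NS replicate 3 (adjusted p = 0.0548 in edgeR) and Slc22a6 in 5 of 9 fits without 1 library (up to 0.145, NS replicates 2 and 3, SA:ANH-vehicle replicate 2 and SA:ANH-KDM5Ci replicates 1 and 3), with limma-voom (0.0647) and with the replicate block (0.0574). Against SA:ANH-vehicle Lum lost its call in 5 of 9 such fits (up to 0.115, all but NS replicates and SA:ANH-vehicle replicate 2), with limma-voom (0.0675) and with the block (0.0573), and Slc22a6 in 3 of 9 (up to 0.109, SA:ANH-vehicle replicate 1 and SA:ANH-KDM5Ci replicates 1 and 3). In SA:ANH-vehicle against NS 7 of the 10 markers were above 0, with a median of 0.03, where Ndnf was at -0.33. Among the 3 libraries of NS the order of Ndnf, lowest in replicate 1 and highest in replicate 3, was that of the summed meningeal level at 110, 162 and 175 CPM. SA:ANH-vehicle replicate 1, with the highest meningeal level at 198 CPM, had 10.4 CPM of Ndnf. The part of the meningeal markers in the result was not tested.

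**Figure D1:**
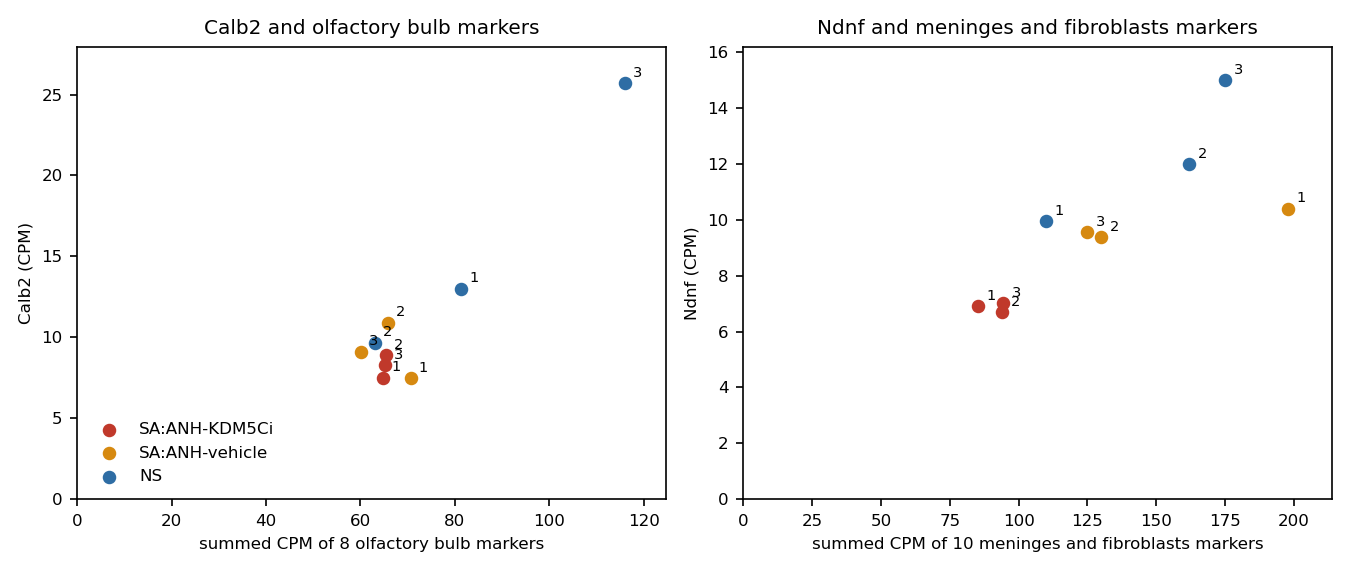
Left, Calb2 in CPM (vertical) against the summed CPM of 8 olfactory bulb markers (horizontal). Right, Ndnf in CPM against the summed CPM of 10 markers of meninges and fibroblasts. Each point is a library with its replicate number, coloured by group. NS replicate 3 is highest for Calb2, at 25.7 CPM, and for the olfactory bulb markers, at 116 CPM, and the SA:ANH-KDM5Ci libraries are lowest for Ndnf, at 6.69 to 7.02 CPM, and for the meningeal markers.

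Lhx6 (gene 16874, chromosome 2, 36081950 to 36105992) was at 25.6, 24.9 and 24.7 CPM in SA:ANH-KDM5Ci, at 23.5, 22.4 and 22.8 CPM in SA:ANH-vehicle and at 21.9, 21.9 and 19 CPM in NS. The 3 groups did not overlap, with SA:ANH-KDM5Ci highest and NS lowest. Against NS the log2 fold change of SA:ANH-KDM5Ci was 0.26 (SE 0.07, interval 0.12 to 0.41), 1.2-fold, and the adjusted p was 0.0456 in the quasi-likelihood test of edgeR. The call was lost in 7 of the 9 fits without 1 library, with adjusted p of 0.0872 without NS replicate 2, 0.194 (log2 0.20) without NS replicate 3, 0.0783 and 0.0643 when SA:ANH-vehicle replicates 2 and 3 were left out, and 0.148, 0.0871 and 0.089 without SA:ANH-KDM5Ci replicates 1, 2 and 3. It was also lost with library size alone (adjusted p = 0.0606), limma-voom (0.0508), no filter on low counts (0.0503) and only the 2 groups compared (0.0848). A predicted gene, Gm27953, overlaps 104 bases of its exons on the same strand, and reads there cannot be told apart. SA:ANH-KDM5Ci replicate 1, the library of highest Lhx6, was also highest for the summed striatal markers. In the same order of libraries these were at 610, 262 and 413 CPM in SA:ANH-KDM5Ci, 285, 228 and 215 CPM in SA:ANH-vehicle and 319, 215 and 191 CPM in NS. The part of the striatal markers in the result was not tested.

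The promoter of Lhx6 is shown because it is that of the member that rose. The set of promoters used (RefSeq GRCm38.p6, from the reference strain and not from DBA2/J) holds 3 starts of Lhx6. The 250 bases upstream of them hold 14, 17 and 7 CpG dinucleotides, against a median of 6 over 32851 promoters of the same length. Windows of other members in that set hold 37 (Reln), 4 and 23 (Pvalb), 8 (Sst and Cort each), 6 (Nos1) and 3 (Vip). CpG-rich promoters are where trimethylation of histone H3 at lysine 4 is mostly found, and no histone mark was measured here. The window before the outermost of the 3 Lhx6 starts lies at chr2:36105409-36105658 on the minus strand. It is inside the RefSeq span of the gene, whose 5′ end is at 36105992. The window reads 5′ to 3′ as follows, with CpG dinucleotides in capitals.
Lhx6: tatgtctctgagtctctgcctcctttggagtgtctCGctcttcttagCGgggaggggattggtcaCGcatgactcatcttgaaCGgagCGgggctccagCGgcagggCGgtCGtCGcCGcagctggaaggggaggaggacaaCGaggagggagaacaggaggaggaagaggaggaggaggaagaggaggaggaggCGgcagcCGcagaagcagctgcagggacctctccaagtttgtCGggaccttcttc

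**Figure D2:**
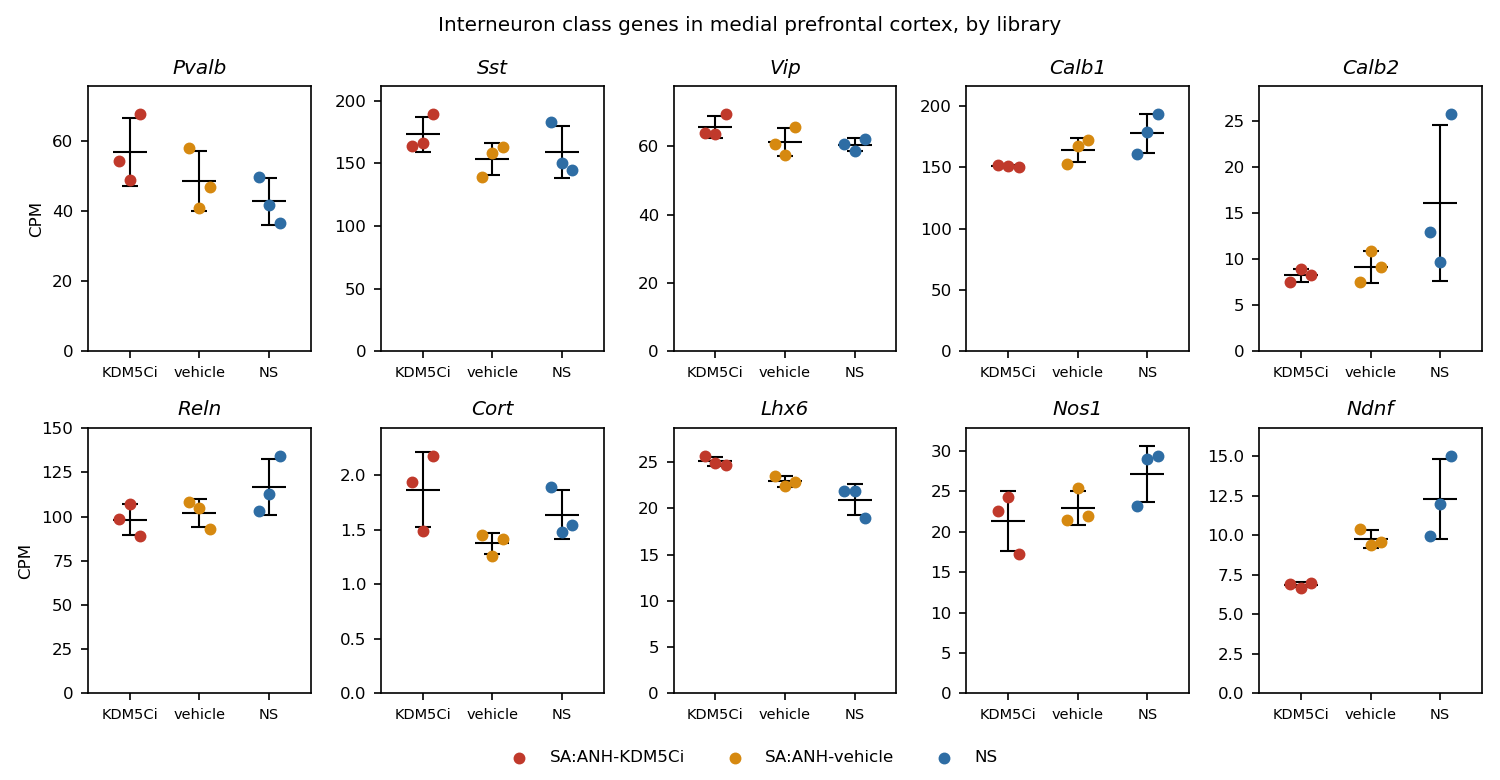
Level of each of the 10 members in CPM (vertical axis, from 0) in the 3 libraries of SA:ANH-KDM5Ci, SA:ANH-vehicle and NS. Points are libraries and bars the mean ± SD. The 3 groups are apart for Lhx6, the SA:ANH-KDM5Ci libraries lie below all others for Ndnf, and NS replicate 3 stands out for Calb2 at 25.7 CPM.

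Among the calcium-binding proteins, Pvalb (gene 19293, chromosome 15), the buffer of fast-spiking cells, was at 54.3, 48.9 and 67.7 CPM in SA:ANH-KDM5Ci, 58.1, 41 and 46.9 CPM in SA:ANH-vehicle and 49.9, 41.9 and 36.7 CPM in NS. The groups overlapped, and the spread within each was wide. Its log2 fold change was 0.41 against NS (interval 0.02 to 0.80, adjusted p = 0.246) and 0.23 against SA:ANH-vehicle (interval -0.16 to 0.62, adjusted p = 0.631) in edgeR. Without SA:ANH-KDM5Ci replicate 3, its highest library, these were 0.27 and 0.08, and the value against SA:ANH-vehicle was 0.38 and 0.12 when SA:ANH-vehicle replicate 1 or 2 was left out.

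Calb1 (gene 12307, chromosome 4) was at 152, 151 and 150 CPM in SA:ANH-KDM5Ci, 153, 167 and 172 CPM in SA:ANH-vehicle and 161, 179 and 193 CPM in NS. All SA:ANH-KDM5Ci libraries lay below all others. The log2 fold change against NS was -0.23 (SE 0.06, interval -0.37 to -0.09), and the adjusted p was 0.0632 in the same test. It was past the threshold with library size alone (0.0484), DESeq2 (0.0213), no filter on low counts (0.0486) and the replicate block (0.0375), and when NS replicate 1 (0.0161) or SA:ANH-vehicle replicate 1 (0.0381) was left out. It was at -0.17 (0.276) without NS replicate 3. Cux2, a marker of upper-layer pyramidal neurons and the excitatory layer marker of lowest p in this comparison, was at 95.2 ± 3.37 CPM in SA:ANH-KDM5Ci and 112 ± 8.78 CPM in NS (SD, n = 3 each), which is -0.24 on the log2 scale, with an adjusted p of 0.0616 in edgeR. Of the 13 tested excitatory layer markers 8 were above 0 and 5 below in this comparison, with a median of 0.03.

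Calb2 (gene 12308, chromosome 8) was at 7.51, 8.92 and 8.29 CPM in SA:ANH-KDM5Ci, 7.48, 10.9 and 9.12 CPM in SA:ANH-vehicle and 13, 9.67 and 25.7 CPM in NS. NS replicate 3, the library with the highest olfactory bulb markers, was above every other library, and SA:ANH-KDM5Ci did not overlap with NS. The log2 fold change against NS was -0.96 (interval -1.80 to -0.12, adjusted p = 0.212) for SA:ANH-KDM5Ci and -0.81 (interval -1.63 to 0.01, adjusted p = 0.61) for SA:ANH-vehicle in edgeR. Without NS replicate 3 they were -0.46 (adjusted p = 0.233) and -0.31 (adjusted p = 0.851). Of the 8 olfactory bulb markers 7 were lower and 1 higher in both comparisons, with medians of -1.43 and -1.34, and 0 passed in edgeR. Their part in the values of Calb2 was not tested.

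Among the peptides, Sst (gene 20604, chromosome 16), which inhibits secretion, was at 164, 166 and 189 CPM in SA:ANH-KDM5Ci, 139, 158 and 163 CPM in SA:ANH-vehicle and 183, 150 and 145 CPM in NS. SA:ANH-KDM5Ci lay above SA:ANH-vehicle in every library and overlapped with NS. On the log2 scale the fold change was 0.17 against SA:ANH-vehicle (interval -0.03 to 0.38, adjusted p = 0.451) and 0.12 against NS (interval -0.09 to 0.32, adjusted p = 0.545) in edgeR. The value against SA:ANH-vehicle was 0.11 when SA:ANH-KDM5Ci replicate 3 or SA:ANH-vehicle replicate 1 was left out.

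The promoter of Sst is shown because Sst is the member of highest level and carries the textbook cyclic AMP response element, TGACGTCA, through which its gene responds to neuronal activity. The element reads the same on both strands. It occurs once in the 250 bases upstream of the Sst start in the same set of promoters. No such window of the other members in that set (Lhx6, Cort, Reln, Nos1, Vip and Pvalb) holds it, and 1.55% of all 32851 windows do. The Sst window lies at chr16:23890845-23891094 on the minus strand of GRCm38.p6, and the element is in capitals. It is inside the RefSeq span of the gene, whose 5′ end is at 23891342.
Sst: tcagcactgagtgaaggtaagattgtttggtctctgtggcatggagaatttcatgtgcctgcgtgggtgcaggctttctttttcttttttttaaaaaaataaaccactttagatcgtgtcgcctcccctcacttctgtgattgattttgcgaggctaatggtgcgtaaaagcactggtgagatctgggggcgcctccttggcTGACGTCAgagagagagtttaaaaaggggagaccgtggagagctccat

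Cort (gene 12854, chromosome 4), a peptide related to somatostatin that binds the same receptors, was at 1.94, 1.49 and 2.17 CPM in SA:ANH-KDM5Ci, 1.45, 1.26 and 1.41 CPM in SA:ANH-vehicle and 1.89, 1.48 and 1.54 CPM in NS. SA:ANH-vehicle was lowest and overlapped with neither other group. Its log2 fold change was 0.44 for SA:ANH-KDM5Ci against SA:ANH-vehicle (interval 0.04 to 0.85, adjusted p = 0.292) and -0.25 for SA:ANH-vehicle against NS (interval -0.66 to 0.16, adjusted p = 0.798) in edgeR, and this last value was -0.13 without NS replicate 1. Vip (gene 22353, chromosome 10), the vasoactive intestinal peptide, was at 63.8, 63.7 and 69.3 CPM in SA:ANH-KDM5Ci, 60.8, 57.4 and 65.7 CPM in SA:ANH-vehicle and 60.6, 58.6 and 62.2 CPM in NS. It was the steadiest member, with intervals of the log2 fold change from -0.03 to 0.22 for SA:ANH-KDM5Ci against SA:ANH-vehicle, from -0.01 to 0.25 for SA:ANH-KDM5Ci against NS and from -0.11 to 0.15 for SA:ANH-vehicle against NS.

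Reln (gene 19699, chromosome 5), the large secreted protein that guides neuronal layering and tunes synapses in the adult, was at 98.4, 107 and 89.2 CPM in SA:ANH-KDM5Ci, 108, 105 and 93.1 CPM in SA:ANH-vehicle and 103, 113 and 134 CPM in NS. NS replicate 3 was again the highest library, and the groups overlapped. The log2 fold change of SA:ANH-KDM5Ci against NS was -0.25 (interval -0.46 to -0.03, adjusted p = 0.207 by edgeR), and -0.13 without NS replicate 3 (adjusted p = 0.554). Nos1 (gene 18125, chromosome 5), the neuronal nitric oxide synthase, was at 22.5, 24.3 and 17.2 CPM in SA:ANH-KDM5Ci, 21.5, 25.4 and 21.9 CPM in SA:ANH-vehicle and 23.2, 29 and 29.3 CPM in NS. SA:ANH-KDM5Ci replicate 3 was the lowest library and the groups overlapped, with a log2 fold change against NS of -0.35 (interval -0.64 to -0.06, adjusted p = 0.175 by edgeR). Without that library it was -0.21 (adjusted p = 0.414). Predicted genes on the other strand overlap 246 bases of Reln exons and 268 bases of Nos1 exons, and whether counting used the strand is not given in the sources used here.

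**Figure D3:**
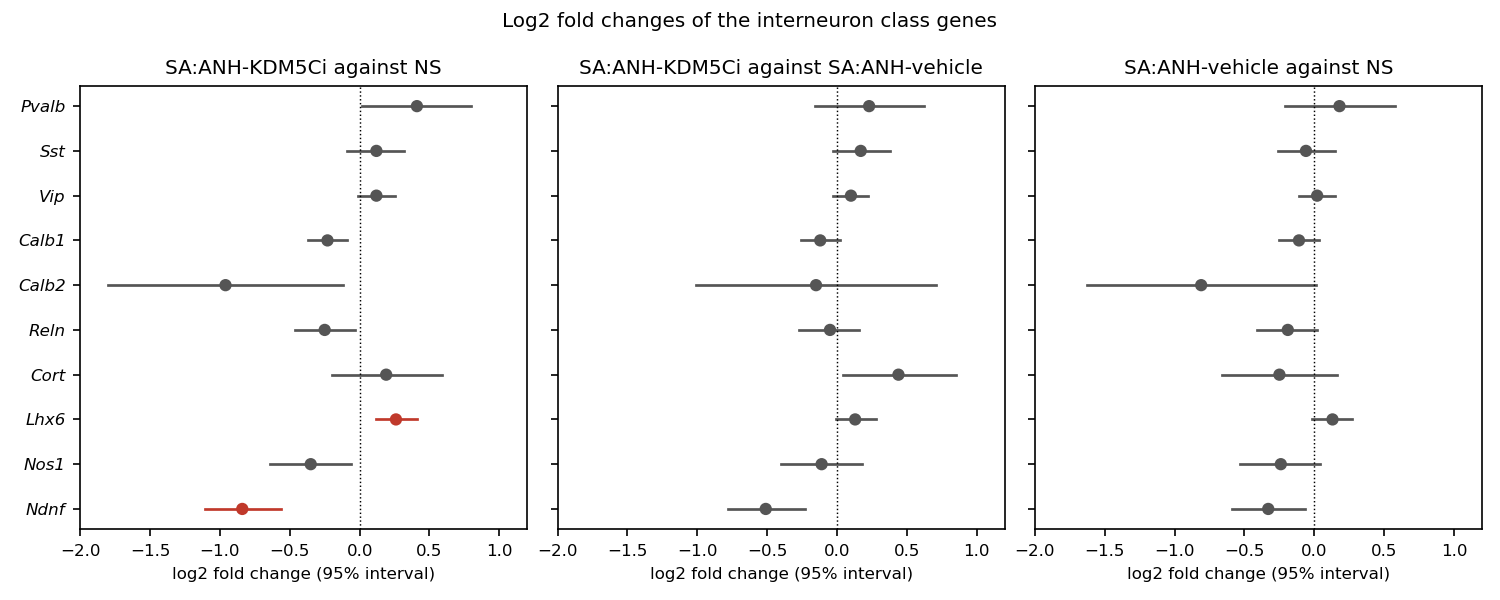
Log2 fold change (horizontal) of each member with its 95% interval for SA:ANH-KDM5Ci against NS, SA:ANH-KDM5Ci against SA:ANH-vehicle and SA:ANH-vehicle against NS. Red marks an adjusted p under 0.05 over 15144 genes. Ndnf at -0.84 and Lhx6 at 0.26, both against NS, are the members that passed, and Calb2 has the widest intervals.

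In SA:ANH-KDM5Ci against NS, 7 of the 10 members had an unadjusted p under 0.05, where 18.5% of all tested genes had, and the groups did not overlap for 5 members, where 23.5% of genes did not, 11.5% higher and 12% lower. Lhx6 and Vip were higher in every SA:ANH-KDM5Ci library and Ndnf, Calb1 and Calb2 lower. Both counts depended on single libraries. Without NS replicate 3, 4 members were at an unadjusted p under 0.05, where 13.4% of genes were. Without SA:ANH-KDM5Ci replicate 1 they were 4 (15.9% of genes), and without SA:ANH-KDM5Ci replicate 3 they were 3 (14.3% of genes). Without NS replicate 1 or SA:ANH-KDM5Ci replicate 2 the groups did not overlap for 9 members, where 41% and 35.6% of genes did not.

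With stress and subtype the same in both groups, SA:ANH-KDM5Ci and SA:ANH-vehicle differ in the inhibitor alone, per the labels. In edgeR 0 of the 10 members passed, where 2.51% of all tested genes did, 0.891% higher and 1.62% lower. Cort and Ndnf had an unadjusted p under 0.05, where 14.2% of genes had, and by DESeq2 1 member, Ndnf, passed. The count at an unadjusted p under 0.05 was 4 without NS replicate 1 (14.9% of genes) or SA:ANH-vehicle replicate 1 (13.4%). It was 3 without NS replicate 3 (13.5%). It was 1 when SA:ANH-KDM5Ci replicate 1 (14.1%) or 3 (10.7%) was left out, or SA:ANH-vehicle replicate 2 (11.3%). The log2 fold changes ran from -0.51 for Ndnf to 0.44 for Cort, with a median of 0.02 against 0.0032 over all tested genes. Sst, Cort and Lhx6 were higher and Calb1 and Ndnf lower in all libraries of SA:ANH-KDM5Ci, 5 members without overlap where 18.9% of genes had none, 7.92% higher and 10.9% lower.

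SA:ANH-vehicle against NS sets defeated mice of the subtype beside non-stressed ones, with saline in both. In edgeR 0 of 10 members passed, where 0.0132% of all tested genes did. DESeq2 and limma-voom called 0 members as well, and 1 member, Ndnf, had an unadjusted p under 0.05, where 8.21% of genes had. That count was 6 without NS replicate 1 (8.83% of genes) and 0 without NS replicate 3 (6.11%). It was 2 when NS replicate 2 (6.3%) or SA:ANH-KDM5Ci replicate 3 (9.13%) was left out. Ndnf was at -0.33 (interval -0.59 to -0.07, adjusted p = 0.495 by edgeR), and at -0.17 (adjusted p = 0.879) without NS replicate 3. Lhx6 was at 0.13 (interval -0.02 to 0.27) and higher in every SA:ANH-vehicle library, and Cort was lower in every one, 2 members without overlap where 15.1% of genes had none, 8.29% higher and 6.81% lower. Without NS replicate 1 they were 6 members (30.5% of genes), and 4 (22.1%) when SA:ANH-vehicle replicate 2 was left out. On the log2 scale the interval ran from -0.26 to 0.15 for Sst and from -0.21 to 0.58 for Pvalb. The 3 comparisons share their groups, so their values are not independent of each other.

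The ratio of Sst to Pvalb within a library does not depend on how libraries are scaled. On the log2 scale of CPM it was 1.59, 1.76 and 1.48 in SA:ANH-KDM5Ci, 1.25, 1.95 and 1.79 in SA:ANH-vehicle and 1.87, 1.84 and 1.98 in NS. SA:ANH-KDM5Ci lay below NS in every library, at 1.61 ± 0.14 against 1.90 ± 0.08 (SD, n = 3 each), a difference of -0.29. The exact two-sided permutation test gave p = 0.1, the smallest that 3 against 3 samples can give. For SA:ANH-vehicle against NS the difference was -0.23 (exact permutation p = 0.4), at -0.03 without SA:ANH-vehicle replicate 1 and -0.38 without SA:ANH-vehicle replicate 2, and for SA:ANH-KDM5Ci against SA:ANH-vehicle it was -0.05 (exact permutation p = 0.9).

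Across the 9 libraries the members fell into 2 sets of 5, a split noticed in the data and given as a description. Pvalb, Sst, Vip, Cort and Lhx6 had positive correlations of log2 CPM with each other in 10 of 10 pairs, with r from 0.357 to 0.77. Calb1, Calb2, Reln, Nos1 and Ndnf had them in 10 of 10 pairs, from 0.607 to 0.876. Between the sets 25 of 25 pairs were negative, from -0.938 for Lhx6 with Ndnf to -0.135 for Cort with Calb2. With group means removed 22 of the 25 were still negative, without NS replicate 3 they were 24, and with both they were 20. Within the first set 1 of 10 pairs was negative with group means removed (-0.272), and 2 of 10 with both (lowest -0.58). Within the second set 3 of 10 pairs were negative with both, and its median r was 0.0783. The libraries share their groups, the tissue cut out and the scaling, and the part of these in the pattern was not tested.

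**Figure D4:**
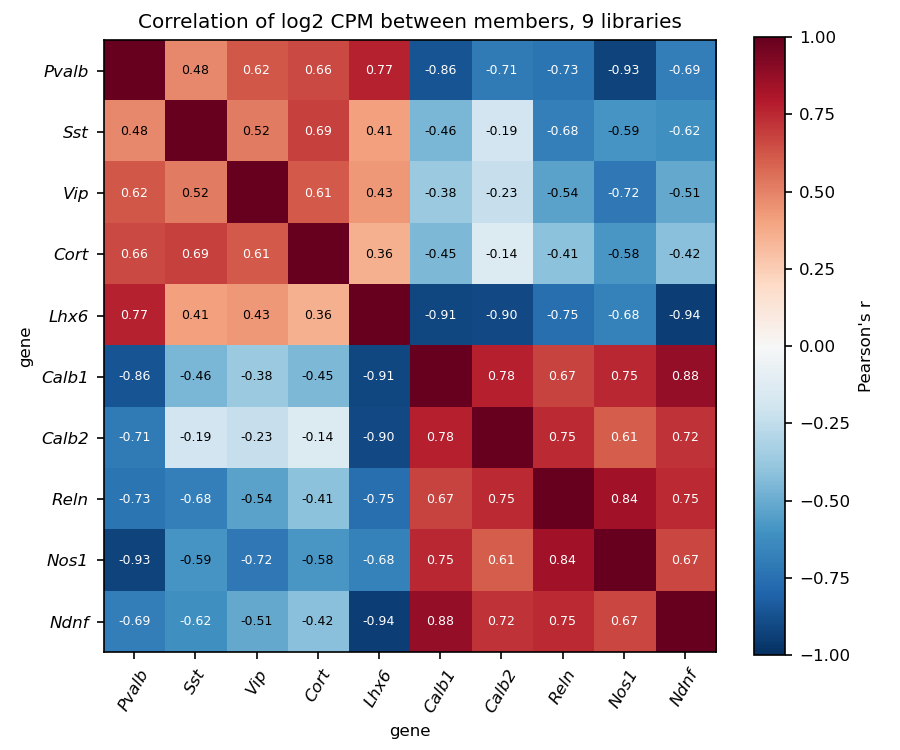
Pearson's r of log2 CPM (prior count 2) for each pair of members over the 9 libraries, in colour and as a number. Pvalb, Sst, Vip, Cort and Lhx6 are positive with each other and negative with Calb1, Calb2, Reln, Nos1 and Ndnf in 25 of 25 pairs.

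Other interneuron genes, listed by lineage or function, mostly did not pass. Of 10 genes of GABA synthesis, transport and interneuron identity (among them Gad1, Slc32a1 and the Dlx factors), 0 passed in any of the 3 comparisons by edgeR, with medians of -0.03, 0.03 and -0.07 for SA:ANH-KDM5Ci against NS, SA:ANH-KDM5Ci against SA:ANH-vehicle and SA:ANH-vehicle against NS. Gad1, which makes most of the GABA in the cell body, was at 403 ± 19.5 CPM in SA:ANH-KDM5Ci and 379 ± 12.3 CPM in NS. Of 20 genes of the medial ganglionic eminence lineage 0 passed as well, with medians of 0.12, 0.07 and 0.0016. Against NS Nxph1, a neurexin ligand, was at 0.19 (adjusted p = 0.105 in edgeR) and higher in all SA:ANH-KDM5Ci libraries. Of 20 genes of the caudal ganglionic eminence lineage Lamp5 was listed at 0 in all libraries, which can be a failed estimate and does not show that it was not expressed. Of the other 19, 1 fell against NS and 1 against SA:ANH-vehicle, in both cases Nr2f2, with medians of -0.07 against NS and -0.06 against SA:ANH-vehicle.

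Nr2f2 (COUP-TFII, gene 11819), a nuclear receptor that caudal interneurons carry from their birth and that vessels also express, was at 8.89 ± 0.709 CPM in SA:ANH-KDM5Ci, 11.9 ± 0.702 CPM in SA:ANH-vehicle and 11.5 ± 1.1 CPM in NS (SD, n = 3 each). Its log2 fold change was -0.42 against SA:ANH-vehicle (SE 0.09, adjusted p = 0.0306) and -0.38 against NS (SE 0.09, adjusted p = 0.0416) in edgeR. Without 1 library the adjusted p reached 0.133 against SA:ANH-vehicle, without SA:ANH-KDM5Ci replicate 3, and 0.191 against NS, without NS replicate 3, and the calls were lost in 5 and 7 of the 9 such fits. They were lost without any 1 of the SA:ANH-vehicle libraries or SA:ANH-KDM5Ci replicates 2 and 3 against SA:ANH-vehicle, and without each library except replicate 1 of NS and of SA:ANH-vehicle against NS. With the replicate block both calls were lost (adjusted p = 0.0507 and 0.0563), and that against NS also with limma-voom (0.0527) and with only the 2 groups (0.0658).

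Of 16 tested receptors and signalling partners of the members' products, 2 fell in SA:ANH-KDM5Ci against NS and 0 passed in the other comparisons, with a median of -0.07. Sstr1, a receptor for somatostatin and cortistatin (gene 20605), was at 44.6 ± 2.32 CPM in SA:ANH-KDM5Ci, 50.8 ± 2.47 CPM in SA:ANH-vehicle and 55.5 ± 0.901 CPM in NS (SD, n = 3 each), and the 3 groups did not overlap. Its log2 fold change against NS was -0.31 (SE 0.06, adjusted p = 0.00631 in edgeR), and the call held in each of the 9 fits without 1 library, with adjusted p up to 0.0371. Gucy1a1, a subunit of the guanylate cyclase that senses nitric oxide (gene 60596), was at 106 ± 7.6 CPM in SA:ANH-KDM5Ci and 130 ± 10.6 CPM in NS, or -0.29 on the log2 scale (SE 0.07, adjusted p = 0.0417 in edgeR). Its call was lost in 7 of those 9 fits, all but those that left out replicate 1 of NS or of SA:ANH-vehicle, with adjusted p up to 0.188 without NS replicate 3, and with limma-voom (0.0543) and only the 2 groups (0.0502). Against SA:ANH-vehicle Gucy1a1 was at -0.26 (adjusted p = 0.0925) and Sstr1 at -0.18 (adjusted p = 0.116).

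Markers of neighbouring tissue also differed between groups. Striatal markers had positive log2 fold changes in 10 of 10 genes for SA:ANH-KDM5Ci against NS (median 0.93) and against SA:ANH-vehicle (median 0.96), and 0 passed by edgeR. Drd2, the dopamine receptor of one class of striatal neurons, was at 8.86, 2.49 and 4.61 CPM in SA:ANH-KDM5Ci, 2.79, 1.6 and 1.41 CPM in SA:ANH-vehicle and 3.28, 1.06 and 1.3 CPM in NS. SA:ANH-KDM5Ci replicate 1, highest for it, was also the highest library for Lhx6, at 25.6 CPM, and for none of the other members. Of 5 tested septal markers 2 had log2 fold changes above 0 and 3 below in each comparison with SA:ANH-KDM5Ci. In each, 2 of those below 0 passed, and 1 of them was Zic2. Zic2 was at 8.13 ± 1.34 CPM in SA:ANH-KDM5Ci against 14.8 ± 1.76 CPM in SA:ANH-vehicle and 14.1 ± 1.02 CPM in NS. Its calls held in all alternatives run. The other was Zic4 against SA:ANH-vehicle (log2 -0.90, adjusted p = 0.0074 in edgeR) and Zic1 against NS (-0.60, adjusted p = 0.0309), and that of Zic1 was lost without NS replicate 2 or 3, SA:ANH-vehicle replicate 2 or any SA:ANH-KDM5Ci library, with adjusted p up to 0.142, and with only the 2 groups (0.0559). Of 6 tested thalamic markers 1, Lef1, which vessels also express, fell in both, at -0.63 on the log2 scale. Against SA:ANH-vehicle (adjusted p = 0.0358 in edgeR) its call was lost without any 1 of the SA:ANH-vehicle libraries or SA:ANH-KDM5Ci replicates 2 and 3, with adjusted p up to 0.148, with the replicate block (0.0623) and with only the 2 groups (0.054). Against NS (0.0291) it was lost without NS replicate 1 or 3 or SA:ANH-KDM5Ci replicate 3, with adjusted p up to 0.139, and with only the 2 groups (0.0543). Of 5 tested Cajal-Retzius markers 1 fell against NS, Ndnf itself. Lhx5, which failed the filter on low counts, had 9.52 counts in NS replicate 3 against 1.34 to 2.68 in the others. Ndnf, at 15 CPM, Reln, at 134 CPM, and Ebf3, at 0.769 CPM, were highest in that library too. Cacna2d2 was not, at 34.9 CPM there and 42.6 CPM in SA:ANH-vehicle replicate 1, its highest library. Nor was Trp73, at 1.07 CPM there and 0.375 to 1.29 CPM over the 9 libraries. Lhx1 had at most 1 count in a library. For 13 tested excitatory layer markers 0 passed in any comparison. The part of these tissues in the members' values was not tested.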

How the data were processed

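The deposited table holds expected counts per gene, estimated counts that need not be whole (15.7% of values above 0 were whole within 1e-06). Per the submitters' processing notes, reads were handled with Trimmomatic 0.32, TopHat2 2.0.13 and Bowtie2 2.2.3 on mm10. Which tool counted the reads, and whether by strand, is not given in the sources used here. Libraries came from 1 strand-specific kit, per the labels. NCBI gene IDs were paired with symbols through RefSeq (GRCm38.p6), which matched 19193 of 19250 features above 0. The table held 0 columns of other samples.

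Counts were rounded, filtered with filterByExpr and scaled by TMM (factors 0.987 to 1.01). edgeR 4.0.16 (R 4.3.3) fitted 1 mean per group to all 9 libraries (glmQLFit, robust), with Benjamini-Hochberg adjustment over 15144 genes at 0.05. The common biological coefficient of variation was 6.95%. Standard errors are the size of a log2 fold change divided by the square root of F, and 95% intervals use the test's degrees of freedom. CPM values use TMM-scaled library sizes. RPKM divides them by merged exon length in GENCODE (GRCm38). The 3 counts that a count of 0 allows cover counting error only. The fit was tested on simulated counts. Alternatives were DESeq2 1.42.0, its size factors, limma-voom (limma 3.58.1), library size alone, other filters, another threshold, fewer groups, no robust moderation, a replicate block and each library left out.

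Named were all members, list genes that passed (up to 6 of lowest p per list), otherwise at most 2 of lowest p, and the 3 genes most like Pvalb, Sst and Vip. A list gene that this rule names is not reported here. Values of Doc2g, Trp73, Lhx1, Lhx5, Cacna2d2 and Drd2 are given outside this rule and were chosen after their values were seen. Slc17a7, Cdhr1, Isl1 and Ebf3 fall under the rule, but their values by library were also chosen after they were seen. The members and lists were chosen with earlier results of these data known.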

Additional observations from a re-analysis of the deposited data

How the results depend on the processing

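Of 540 member values under the alternatives, 511 kept their direction and their side of the threshold, 11 lost a call (all Lhx6 against NS), 12 gained one (Ndnf against SA:ANH-vehicle and Calb1 against NS) and 6 changed sign. The sign changes were near 0: without SA:ANH-KDM5Ci replicate 3, Reln and Nos1 against SA:ANH-vehicle were 0.01 and 0.03, Sst in SA:ANH-vehicle against NS was 0.06 when NS replicate 1 was left out and 0.01 when SA:ANH-vehicle replicate 1 was, and Vip there was -0.0033 when NS replicate 2 was left out and -0.03 when SA:ANH-vehicle replicate 3 was. Over all such fits Reln ran from -0.12 to 0.01, Nos1 from -0.21 to 0.03 and Sst from -0.12 to 0.06. The cause was not tested. Members passing in SA:ANH-KDM5Ci against SA:ANH-vehicle were 1 with library size alone, DESeq2, no filter, a threshold of 0.10 or only 2 groups, and 0 to 1 without a library. In SA:ANH-KDM5Ci against NS they were 1 with limma-voom or only 2 groups. They were 3 with DESeq2, the replicate block or a threshold of 0.10, and 1 to 3 without a library. In SA:ANH-vehicle against NS they were 0 in all settings run. All genes passing in SA:ANH-KDM5Ci against SA:ANH-vehicle were 380, 593 at 0.10 and 203 to 429 without a library (253, 203 and 204 without SA:ANH-vehicle replicate 1 or 2 or SA:ANH-KDM5Ci replicate 3). In SA:ANH-vehicle against NS they were 2, 11 with library size alone or no filter, 81 with DESeq2, 15 at 0.10, 17 with 2 groups and 2 to 17 without a library (4 without SA:ANH-vehicle replicate 1 or 3, 9 and 17 without SA:ANH-KDM5Ci replicate 1 or 3). In SA:ANH-KDM5Ci against NS they were 601, 1017 at 0.10 and 269 to 747 without a library (318, 269, 279 and 398 without NS replicate 2 or 3 or SA:ANH-KDM5Ci replicate 1 or 3). The replicate block gave 363, 2 and 708 genes in the same order and, among the members, added the call of Calb1 against NS (log2 -0.23, adjusted p = 0.0375 by edgeR). Among other named genes it ended the calls of Nr2f2, of Lef1 and Lum against SA:ANH-vehicle and of Slc22a6 against NS. Deviations of same-numbered samples from their group means correlated from -0.144 to 0.238, and not every sample correlated best with its own number. As every pair was over 0.1 in none of the 3 comparisons, the numbers were not taken as pairs. Between SA:ANH-vehicle and SA:ANH-KDM5Ci, however, replicates 1, 2 and 3 correlated at 0.238, 0.0839 and 0.184 with their own number. Samples of different number in these groups correlated from -0.251 to 0.0851. Whether these samples were paired was not tested. The difference in the log2 ratio of Sst to Pvalb between SA:ANH-KDM5Ci and SA:ANH-vehicle ran from -0.26 to 0.09 without a library, at 0.01 without SA:ANH-KDM5Ci replicate 3 or SA:ANH-vehicle replicate 3 and 0.09 without SA:ANH-vehicle replicate 2, and at -0.36 to -0.22 between SA:ANH-KDM5Ci and NS. Depth limits Cort most, at 45.2 to 87.1 counts.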

Other observations

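Among 13472 genes with a mean of at least 1 CPM, those most like the class genes over the 9 libraries were Snx25, Ctsb and Ank for Pvalb (Pearson's r of log2 CPM 0.98, 0.972 and 0.969, Spearman's rho 0.983, 0.967 and 0.967). For Sst they were Ctbp1, Abhd8 and Cope (r 0.987, 0.979 and 0.978, rho 0.95, 0.967 and 0.933), and for Vip Cyrib, Tmem43 and Chmp5 (r 0.937, 0.937 and 0.935, rho 0.9, 0.967 and 0.9). With group means removed r stayed at 0.967 to 0.977 for Pvalb, 0.973 to 0.991 for Sst and 0.895 to 0.902 for Vip. None of the members is among them. The libraries share their groups, and the highest of 13472 values is given with no test.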
